A study of Homo sapiens with 12 samples.

Results

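Tissue factor pathway inhibitor (TFPI) and 6 other genes of blood coagulation and plasminogen activation, TFPI2, F3, THBD, SERPINE2, PLAU and PLAT, were followed across HCT116 cells and 2 lines recombined from them, Hke3 and Hkh-2. The 7 genes were chosen by gene symbol, out of 19775 genes with a probe set of their own, and all 16 of their probe sets, out of 54675 on the array, were taken. They were chosen from values of these same arrays: TFPI for its levels in Hke3 and Hkh-2, and the others with the results of the recombined lines known. The difference between Hke3 and Hkh-2, and every TFPI difference between lines, is therefore given as a description with no test. The p-values of the other members against HCT116 vehicle come from genes chosen in this way, so they are no independent support. A gene was kept for testing where the mean of at least 1 group reached a log2 value of 6, and 5 of the 7 were kept: TFPI, F3, SERPINE2, PLAU and PLAT. TFPI2 and THBD were not.

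HCT116 is a human colorectal cancer cell line that carries an oncogenic RAS allele, and Hke3 and Hkh-2 are clones of it in which homologous recombination removed the oncogenic allele. The study used them to find genes that follow oncogenic RAS activity. RNA was measured on 12 arrays in 4 groups of 3: vehicle-treated HCT116 control cells and HCT116 control cells given 25 ng/ml doxycycline, both harvested on day 3, and Hke3 and Hkh-2 in basal culture. The sources do not settle whether the HCT116 control arrays are parental cells or carry a control vector, so a difference from HCT116 means a difference from the vehicle arrays. With 1 clone a line, an effect of the recombination and a trait of the clone cannot be told apart, and the line and its culture condition cannot be told apart either. No source states whether the 3 arrays of a group are separate cultures, so the p-values measure array-to-array spread that may be technical.

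Coagulation starts when tissue factor, the product of F3, meets factor VII of the plasma on a cell surface, and TFPI shuts this step down by binding tissue factor, factor VII and factor X together. Thrombin, the end product of the cascade, is in turn diverted towards protein C activation by thrombomodulin, the product of THBD. Plasminogen is cut to plasmin, which dissolves fibrin and degrades matrix, by urokinase (PLAU) and tissue-type activator (PLAT), and carcinoma cells are known to use urokinase and tissue factor in invasion. SERPINE2, also called protease nexin-1, inhibits thrombin and both activators, and TFPI2 is a matrix-bound Kunitz-type inhibitor of plasmin and related proteases.

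Values are log2 expression values that the authors computed with RMA, 1 for each probe set and array. The array medians lay between 5.80 and 5.86, and arrays of a group correlated with each other at r of 0.993 to 0.998. In each of 2 groups 1 array stood apart, replicate 2 of HCT116 vehicle and replicate 3 of Hke3, and these deviated from their group means in the same genes (r = 0.683 across genes). Each member call that was lost without both is therefore given with and without them, as are several other member results. All 8 epithelial markers were at 6 or more in every group. Of the endothelial markers, PECAM1 (6.56 to 6.86), ESAM (6.60 to 6.74) and ROBO4 (6.42 to 6.52) had group means of 6 or more in every group. VWF reached 6 in HCT116 only. The endothelial markers CDH5 (3.90 to 4.13), KDR (3.51 to 3.66), TEK (5.42 to 5.73) and CLDN5 (5.07 to 5.25) had group means near background, as a log2 value under 6 is called here. Of 5 leukocyte markers, ITGB2 was at 6.23 to 6.42 in every group and the other 4 were near background, PTPRC at 3.80 to 3.94. The 8 endothelial markers gave a log2 summed level of 8.72 to 8.84 in the Hke3 arrays and of 8.91 to 9.02 in the vehicle arrays, with 3 and 4 markers at 6 or more.

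The start regions of the 3 genes with the largest differences are shown so that a reader can see how different they are. Each run holds the 250 bases before the RefSeq start, on the gene's own strand and in build GRCh38.p14. TFPI lies on chromosome 2 (chr2:187554436-187554685, minus strand), F3 on chromosome 1 (chr1:94541760-94542009, minus strand) and PLAU on chromosome 10 (chr10:73910882-73911131, plus strand, the downstream of 2 listed starts). Capitals mark matches on either strand to the motifs AP-1 (TGANTCA), ETS (CCGGAA), SP/KLF (GGGCGG), TEAD (CATTCC) and TATA box (TATAAA).
TFPI: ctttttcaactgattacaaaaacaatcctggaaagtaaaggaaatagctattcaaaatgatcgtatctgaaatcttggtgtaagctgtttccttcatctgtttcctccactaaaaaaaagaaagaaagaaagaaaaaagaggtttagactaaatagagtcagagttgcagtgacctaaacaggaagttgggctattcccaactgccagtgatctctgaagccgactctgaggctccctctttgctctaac
F3: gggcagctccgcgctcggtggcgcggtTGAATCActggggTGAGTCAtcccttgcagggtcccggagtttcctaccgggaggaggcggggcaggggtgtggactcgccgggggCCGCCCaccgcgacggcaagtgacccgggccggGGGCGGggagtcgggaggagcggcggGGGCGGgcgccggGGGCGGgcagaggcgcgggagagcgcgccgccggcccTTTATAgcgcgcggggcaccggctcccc
PLAU: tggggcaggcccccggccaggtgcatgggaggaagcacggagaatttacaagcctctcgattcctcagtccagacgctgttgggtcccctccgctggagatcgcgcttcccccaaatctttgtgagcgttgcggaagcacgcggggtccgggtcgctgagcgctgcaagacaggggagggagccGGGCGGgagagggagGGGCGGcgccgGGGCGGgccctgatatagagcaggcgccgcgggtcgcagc

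The F3 region held 7 matches, of which 2 were AP-1 letters, at 210 to 204 and at 223 to 217 bases before the start, 4 were SP/KLF letters and 1 was a TATA box at 28 to 23. The PLAU region held 3 SP/KLF matches, its upstream start region, not printed, held 0, and the TFPI region held 0 matches to the 5 motifs. G and C made up 78.0% of the F3 region, 68.8% of the PLAU region (46.8% at the upstream start) and 38.4% of the TFPI region, against a median of 58.0% over all 35116 regions of this length. AP-1 letters were in 6.57% of all regions, SP/KLF letters in 42.6%, TATA box letters in 10.7%, ETS letters in 14.5% and TEAD letters in 11.9%. The AP-1 letters overlap none of the other matches. A match is a run of letters and no evidence of binding.

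TFPI, the Kunitz-type inhibitor that stops the tissue factor step, was high in Hke3 and low in HCT116 and Hkh-2. On the probe set with the highest mean, 213258_at, the log2 values were 6.85, 5.97 and 6.29 in the vehicle arrays and 7.0, 6.82 and 6.49 in the doxycycline arrays. They were 11.13, 11.31 and 10.92 in Hke3 and 5.87, 5.94 and 5.99 in Hkh-2. All 3 Hke3 arrays lay above the other 9, while the vehicle arrays overlapped both the doxycycline and the Hkh-2 arrays. The means were 6.37 ± 0.448 (SD, n = 3) with vehicle, 6.77 ± 0.255 with doxycycline, 11.12 ± 0.195 in Hke3 and 5.93 ± 0.059 in Hkh-2, so the order was Hke3, doxycycline, vehicle, Hkh-2. Among neighbours in that order, Hke3 stood clear of doxycycline, but doxycycline and vehicle overlapped and so did vehicle and Hkh-2.

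Hke3 exceeded the vehicle arrays in TFPI by 4.75 on the log2 scale, 27.0-fold, and by 4.65 without both arrays that stood apart. Hkh-2 minus vehicle was -0.44, and vehicle replicate 2 was the only vehicle array within the range of Hkh-2. Without that array, and likewise without both arrays that stood apart, the difference was -0.64 and the arrays did not overlap, and without vehicle replicate 1 it was -0.20. Since the Hkh-2 mean was near background, Hke3 exceeded Hkh-2 by at least 5.12, and the fitted difference was 5.19. In these cultures a smaller share of TFPI-expressing cells and less TFPI RNA in each cell cannot be told apart.

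All 5 TFPI probe sets were highest in Hke3. The Hke3 and vehicle means were 9.69 and 5.64 for 210664_s_at, 8.83 and 3.86 for 209676_at, 7.51 and 3.37 for 210665_at and 5.55 and 3.61 for 214378_at. The Hkh-2 means of these 4 probe sets were 4.78, 3.78, 3.42 and 3.42. Only Hke3 reached 6 on 210664_s_at, 209676_at and 210665_at, so the Hke3 means exceeded both HCT116 and Hkh-2 by at least 3.69, 2.83 and 1.51 there. No group mean reached 6 on 214378_at, whose Hke3 value exceeded the vehicle value by 1.93 in the range near background. The plot of the 5 probe sets by array shows the same separation for each.

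**Figure D1:**
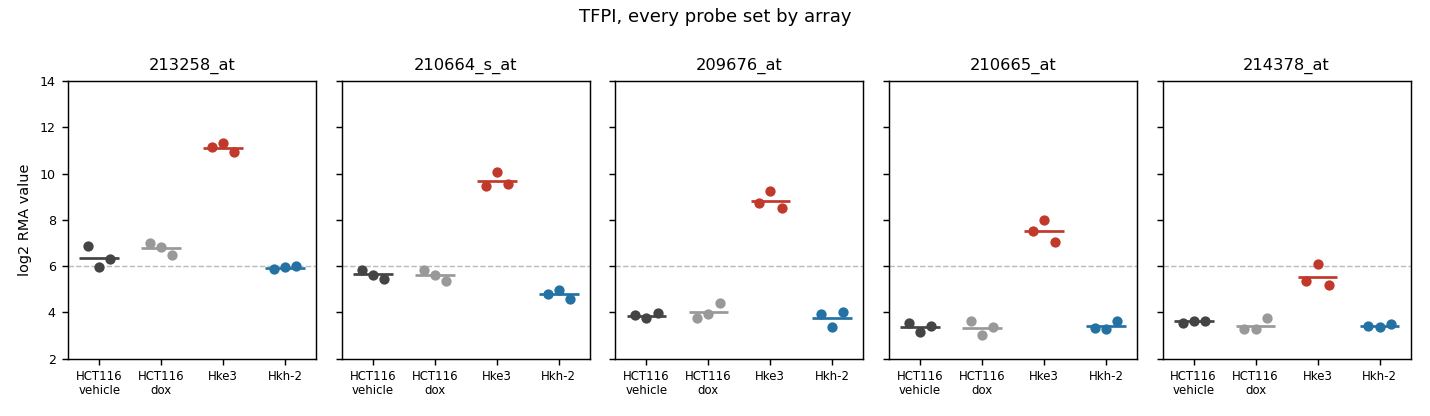
Log2 RMA value (y axis) of the 5 TFPI probe sets (panels) in each array, with 3 arrays per group (points) and the group mean (bar); dox is doxycycline and the dashed line is the log2 value of 6. The Hke3 arrays lie above all others in each panel, at 10.92 to 11.31 on 213258_at.

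TFPI2, the matrix-bound relative of TFPI, stayed near background in every group. Its group means ran from 3.07 to 3.40 on 209278_s_at and from 2.68 to 2.87 on 209277_at. The Hke3 arrays, in which TFPI was high, were no exception.

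F3, which encodes tissue factor, was high in HCT116 and Hke3 and low in Hkh-2. Its only probe set, 204363_at, read 11.80, 11.75 and 11.76 with vehicle and 11.66, 11.64 and 11.81 with doxycycline. It read 11.98, 12.14 and 12.31 in Hke3 and 8.27, 8.31 and 8.67 in Hkh-2. All Hkh-2 arrays lay below all others and all Hke3 arrays above all others, while vehicle and doxycycline overlapped.

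The F3 means were 11.77 ± 0.026 (SD, n = 3) with vehicle, 12.14 ± 0.165 in Hke3 and 8.42 ± 0.224 in Hkh-2. Hkh-2 minus vehicle was -3.35 (SE 0.111, limma adjusted p = 1.31e-10), which made F3 10.2-fold lower in Hkh-2. Hke3 minus vehicle was 0.37 (SE 0.111, limma adjusted p = 0.0142), and 0.28 (limma adjusted p = 0.073) without both arrays that stood apart, so that call rests on them. Hke3 exceeded Hkh-2 in F3 by 3.73, and 3.64 without both arrays. In RNA, the inhibitor and its target split the lines differently: TFPI set Hke3 apart from HCT116 and Hkh-2, and F3 set Hkh-2 apart from HCT116 and Hke3. Both genes were chosen with results of these lines known, so this contrast is a description only.

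THBD, which encodes thrombomodulin, had no group mean of 6 on any of its 3 probe sets. On 203888_at the group means were 5.84 with vehicle, 5.96 with doxycycline, 5.69 in Hke3 and 5.90 in Hkh-2, and single arrays ran from 5.53 to 6.03. On 237252_at they lay between 3.60 and 3.79 and on 203887_s_at between 3.54 and 3.72. With a highest group mean of 5.96, THBD was the gene nearest below the limit of 6, and PLAT, with a highest group mean of 7.62, was the nearest above.

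PLAU, which encodes urokinase, was raised in Hke3. The probe set 205479_s_at read 8.77, 8.93 and 8.86 with vehicle, 8.62, 8.85 and 9.04 with doxycycline, 10.94, 10.79 and 10.89 in Hke3 and 9.07, 9.12 and 9.03 in Hkh-2. The Hke3 arrays lay above all others, and the Hkh-2 arrays lay above the vehicle arrays but overlapped the doxycycline arrays. Hke3 minus vehicle was 2.02 (SE 0.0977, limma adjusted p = 4.32e-09), 4.05-fold, and 2.05 without both arrays that stood apart.

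Hkh-2 minus vehicle was 0.22 in PLAU (95% interval 0.01 to 0.43, limma adjusted p = 0.103), so no call was made. The second probe set, 211668_s_at, gave 1.82 for Hke3 minus vehicle (SE 0.120, limma adjusted p = 1.47e-07 over all probe sets) and -0.03 for Hkh-2 minus vehicle (limma adjusted p = 0.873). Both probe sets therefore gave a rise in Hke3 of near size. Hke3 exceeded Hkh-2 by 1.80 on the first and by 1.85 on the second.

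PLAT, which encodes the tissue-type activator, lay above the vehicle arrays in Hke3 and below them in Hkh-2. Its probe set, 201860_s_at, read 7.26, 7.29 and 7.45 with vehicle, 7.31, 7.22 and 7.51 with doxycycline, 7.56, 7.62 and 7.67 in Hke3 and 6.86, 6.81 and 6.91 in Hkh-2. All Hke3 arrays lay above and all Hkh-2 arrays below the other groups. Hkh-2 minus vehicle was -0.47 (SE 0.0868, limma adjusted p = 0.000887), and -0.50 without both arrays that stood apart.

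Hke3 minus vehicle was 0.28 in PLAT (SE 0.0868, limma adjusted p = 0.0168). That call was lost without both arrays that stood apart, at 0.23 (limma adjusted p = 0.0678), and without vehicle replicate 1, at 0.25 (limma adjusted p = 0.0611). Hke3 exceeded Hkh-2 in PLAT by 0.75.

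SERPINE2, the inhibitor of thrombin and of both activators, ran the other way from F3 and PLAT. On 212190_at it read 11.28, 11.40 and 11.43 with vehicle, 11.29, 11.37 and 11.36 with doxycycline, 11.17, 11.15 and 11.04 in Hke3 and 11.65, 11.80 and 11.75 in Hkh-2. The Hke3 arrays were lowest and the Hkh-2 arrays highest, with no overlap with HCT116. Hke3 minus vehicle was -0.25 (SE 0.0732, limma adjusted p = 0.0126), and -0.19 (limma adjusted p = 0.0474) without both arrays that stood apart. Hkh-2 minus vehicle was 0.36 (SE 0.0732, limma adjusted p = 0.00167), and Hke3 minus Hkh-2 was -0.62.

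The second SERPINE2 probe set, 227487_s_at, gave the opposite order, with means of 5.96 with vehicle, 5.84 with doxycycline, 6.13 in Hke3 and 5.49 in Hkh-2. All of these lay close to background, and neither its Hke3 difference of 0.17 (limma adjusted p = 0.573) nor its Hkh-2 difference of -0.47 (limma adjusted p = 0.144) passed the test. The direction of SERPINE2 therefore holds for 212190_at alone. With the mean of both probe sets in place of the brighter, Hke3 minus Hkh-2 turned to 0.014.

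**Figure D2:**
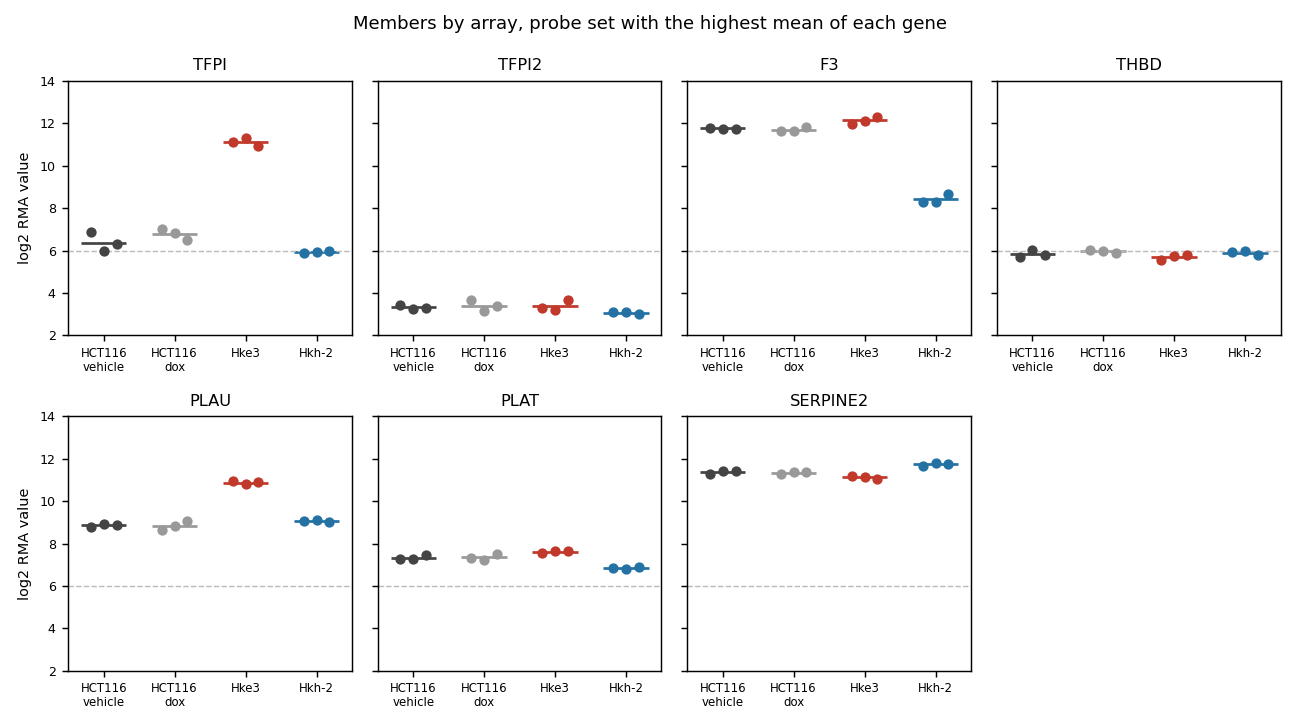
Log2 RMA value (y axis) of the probe set with the highest mean of each of the 7 genes (panels) in each array, with 3 arrays per group (points) and the group mean (bar); dox is doxycycline and the dashed line is the log2 value of 6. TFPI and PLAU are high in Hke3, F3 is low in Hkh-2 at 8.27 to 8.67, and TFPI2 and THBD stay under 6 in their group means.

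Of the 4 genes tested against HCT116 vehicle, 3 were higher in Hke3 (F3, PLAU and PLAT) and 1 was lower (SERPINE2). Over all 12852 genes tested, 23.2% were higher in Hke3 and 24.6% lower, 47.8% in all, so a call by itself is common in this comparison. Over the 5 kept genes the median difference, HCT116 vehicle minus Hke3, was -0.37, beside 0.04 over all genes. In Hkh-2, 2 of the 4 were lower (F3 and PLAT) and 1 was higher (SERPINE2), beside 14.3% lower and 21.7% higher over all genes, 36% in all. The median of the 5, HCT116 vehicle minus Hkh-2, was 0.44, beside -0.02 over all genes, and it is the value of TFPI itself. TFPI was chosen for its levels in these lines, its vehicle and Hkh-2 arrays overlapped, and its Hkh-2 mean was near background. Between Hke3 and Hkh-2 the arrays of all 5 kept genes did not overlap. Of these, 4 were higher and 1 lower in Hke3, beside 19.8% and 28.2% of all genes. Nothing is read from any of these counts or medians, because the genes were chosen with the results of the recombined lines known. The comparisons share arrays, so the values of a gene in them are not independent.

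No difference between doxycycline and vehicle was detected in the members at 3 arrays a group. Doxycycline minus vehicle was 0.40 in TFPI (95% interval -0.01 to 0.81, limma adjusted p = 1), and 0.20 without both arrays that stood apart. Vehicle replicate 2 was the lowest TFPI array of its group, and without vehicle replicate 1, the highest, the difference was 0.64. Between same-numbered arrays, TFPI was higher with doxycycline in all 3 pairs, by 0.14, 0.85 and 0.20, and with the replicate number as a block the limma adjusted p was 1 as well. It was -0.07 in F3 (95% interval -0.31 to 0.18), -0.02 in PLAU (-0.23 to 0.19), 0.01 in PLAT (-0.18 to 0.20) and -0.03 in SERPINE2 (-0.19 to 0.13). By limma, 0 of the 5 passed an adjusted p of 0.05 and 0 an unadjusted one, beside 0% and 0.988% (127 genes) of all 12852 genes. The TFPI interval reaches a rise of 0.81.

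The surrounding pathway was read from 7 lists that hold 61 genes other than the members. Of these, 58 had a probe set named here, 35 were kept and 23 were not, and 6 of the 35 (F10, F11, VWF, SERPINA5, AMBP and MMP7) reached 6 in some groups only. A gene of this kind passes the limit through the groups where it is high, so these 6 are given as values only and the counts cover the 29 genes whose mean over all arrays was at least 6, a limit chosen after seeing the data. Against HCT116 vehicle, 11 of the 29 were higher and 3 lower in Hke3, beside 23.2% and 24.6% of all genes, and 4 were higher and 5 lower in Hkh-2, beside 21.7% and 14.3%. Hke3 exceeded Hkh-2 in 11 and fell below it in 5, beside 16.3% and 23.5% of all genes. With the 6 included the counts were 13 and 5, 5 and 6, and 12 and 6. The lists are small, each with 1 to 8 of these genes, and were chosen with earlier results of these data known. The shares are over all genes that reached 6 in at least 1 group. They therefore share the limit of the 35 genes and not that of the 29, and no shift of the pathway is read from the counts. The medians of the 35 were -0.04 for vehicle minus Hke3, -0.06 for vehicle minus Hkh-2 and 0.04 for Hke3 minus Hkh-2, beside 0.04, -0.02 and -0.06 over all genes. With doxycycline, 0 of the 35 passed limma's test, also at an unadjusted p.

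Among the 8 plasminogen system partners, 4 were higher and 1 lower in Hke3 than with vehicle, and 0 were higher and 1 lower in Hkh-2. PLAUR, the receptor that holds urokinase on the cell surface, read 8.35, 8.30 and 8.29 with vehicle, 8.88, 8.82 and 8.70 in Hke3 and 8.42, 8.31 and 8.22 in Hkh-2. It was higher in Hke3 by 0.48 (SE 0.0800, limma adjusted p = 0.000297), on each of its 3 probe sets, while Hkh-2 minus vehicle was 0.00 (95% interval -0.17 to 0.18, limma adjusted p = 0.982). Urokinase and its receptor were thus both raised in Hke3, by 2.02 and 0.48. SERPINI1, neuroserpin, an inhibitor of the tissue-type activator, was higher in Hke3 by 0.78 (limma adjusted p = 0.000803). S100A10, the annexin A2 partner that binds plasminogen at the membrane, was lower in both lines, by values of -0.45 in Hke3 (limma adjusted p = 0.000474) and -0.81 in Hkh-2 (limma adjusted p = 4.03e-06).

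Of 4 coagulation factors, 1 (F8) was higher and 1 (F12) lower in Hke3, and 0 were called in Hkh-2. F8, the cofactor that speeds factor X activation, read 7.24, 6.86 and 7.25 with vehicle and 7.92, 7.96 and 8.01 in Hke3, a difference of 0.84 (SE 0.0983, limma adjusted p = 1.62e-05). Its Hkh-2 difference was 0.21 (limma adjusted p = 0.119). VWF, the carrier of factor VIII and also one of the endothelial markers, was measured in HCT116 at 6.17 to 6.54 on its brighter probe set. It was near background there in both lines, so it was lower by at least 0.35 in each. The other VWF probe set was near background in every group, with a highest group mean of 5.78, so this rests on the brighter one.

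Of 3 anticoagulant genes, 2 were higher and 0 lower in Hke3, and 0 were higher and 1 lower in Hkh-2. PROCR, the protein C receptor, read 10.78, 10.67 and 10.78 with vehicle, 11.18, 11.27 and 11.17 in Hke3 and 10.32, 10.42 and 10.42 in Hkh-2, with no overlap between any of these groups. Hke3 minus vehicle was 0.46 (limma adjusted p = 0.000196) and Hkh-2 minus vehicle -0.35 (limma adjusted p = 0.00199). PROCR thus lay on opposite sides of HCT116 in the lines, as F3 and PLAT did. SERPINA5, the protein C inhibitor, was near background with vehicle and higher by at least 0.25 in Hke3 and 0.11 in Hkh-2.

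F2R, the thrombin receptor and the only gene of its list counted, read 8.22, 8.25 and 8.59 with vehicle, 8.49, 8.61 and 8.47 in Hke3 and 7.55, 7.49 and 7.60 in Hkh-2. Hkh-2 was lower, with a difference of -0.81 (SE 0.112, limma adjusted p = 8.87e-05), and Hke3 minus vehicle was 0.17 (limma adjusted p = 0.219). Its probe set may also bind other transcripts, and the other probe set gave -0.22 for Hkh-2 (limma adjusted p = 0.286), so the call rests on the first.

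Of 4 other Kunitz-type inhibitors, 2 were higher in Hke3 and 3 in Hkh-2, with 0 lower. SPINT1, an inhibitor of membrane-bound serine proteases, read 9.39, 9.88 and 9.32 with vehicle, 8.87, 8.78 and 9.74 in Hke3 and 10.52, 10.48 and 10.39 in Hkh-2. It was higher in Hkh-2 by 0.93 (limma adjusted p = 0.00343). Hke3 minus vehicle was -0.40 (limma adjusted p = 0.127) and became -0.53 (limma adjusted p = 9.79e-05) without both arrays that stood apart, the 2 arrays that were highest in their groups. The other SPINT1 probe set, with a highest group mean of 7.19, gave the same directions at smaller size. There HCT116 vehicle minus Hkh-2 was -0.12 and HCT116 vehicle minus Hke3 was 0.14. The size of the SPINT1 rise in Hkh-2 therefore rests on the brighter probe set. APP, whose longer forms carry a Kunitz domain, was higher in Hke3 by 0.43 (limma adjusted p = 0.00287), with 0.80 and 0.07 on its other probe sets.

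MMP7, matrilysin, a protease of intestinal epithelium, was near background outside Hke3, as 3 of the TFPI probe sets were. It read 4.92, 5.01 and 4.86 with vehicle, 7.89, 8.13 and 6.78 in Hke3 and 4.81, 5.07 and 4.79 in Hkh-2, so it exceeded both by at least 1.60 in Hke3. The low Hke3 array was replicate 3, and without both arrays that stood apart the fitted difference from vehicle went from 2.67 to 3.12. TIMP2, an inhibitor of matrix metalloproteinases, read 10.86, 10.95 and 11.12 with vehicle, 12.49, 12.35 and 12.68 in Hke3 and 11.68, 11.68 and 11.63 in Hkh-2. It was higher in Hke3 by 1.53 (limma adjusted p = 7.15e-08) and in Hkh-2 by 0.68 (limma adjusted p = 0.000128). On the brightest probe set not marked as binding several transcripts, the Hkh-2 difference was 0.29 (limma adjusted p = 0.0792). The remaining TIMP2 probe set, with a highest group mean of 9.32, gave -0.66 for HCT116 vehicle minus Hkh-2. That is near the -0.68 of the brightest TIMP2 probe set. The Hkh-2 rise therefore had the same direction on every TIMP2 probe set, but its size and its call depended on the probe set. Over 5 matrix metalloproteinases and TIMPs, 1 was higher and 1 lower in Hke3, and 1 was higher and 1 lower in Hkh-2.

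Vitamin K dependent carboxylation, which equips several coagulation factors to bind membranes, changed in single genes: of 4, 1 was higher in Hke3 and 1 lower in Hkh-2. GAS6, a carboxylated ligand of receptor tyrosine kinases, was higher in Hke3 by 0.47 (limma adjusted p = 0.0213), where replicate 3 read 9.67 and the other arrays 9.03 and 9.02, and by 0.36 without both arrays that stood apart. The call was lost with only the compared groups (limma adjusted p = 0.079), without vehicle replicate 1 (limma adjusted p = 0.0681) or 3 (limma adjusted p = 0.0657), and without Hke3 replicate 3, at 0.26 (limma adjusted p = 0.0512). VKORC1L1, a vitamin K epoxide reductase, was lower in Hkh-2, with a difference of -0.54 (limma adjusted p = 0.000652), and read 9.35, 9.29 and 9.29 there against 9.94, 9.73 and 9.87 with vehicle.

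**Figure D3:**
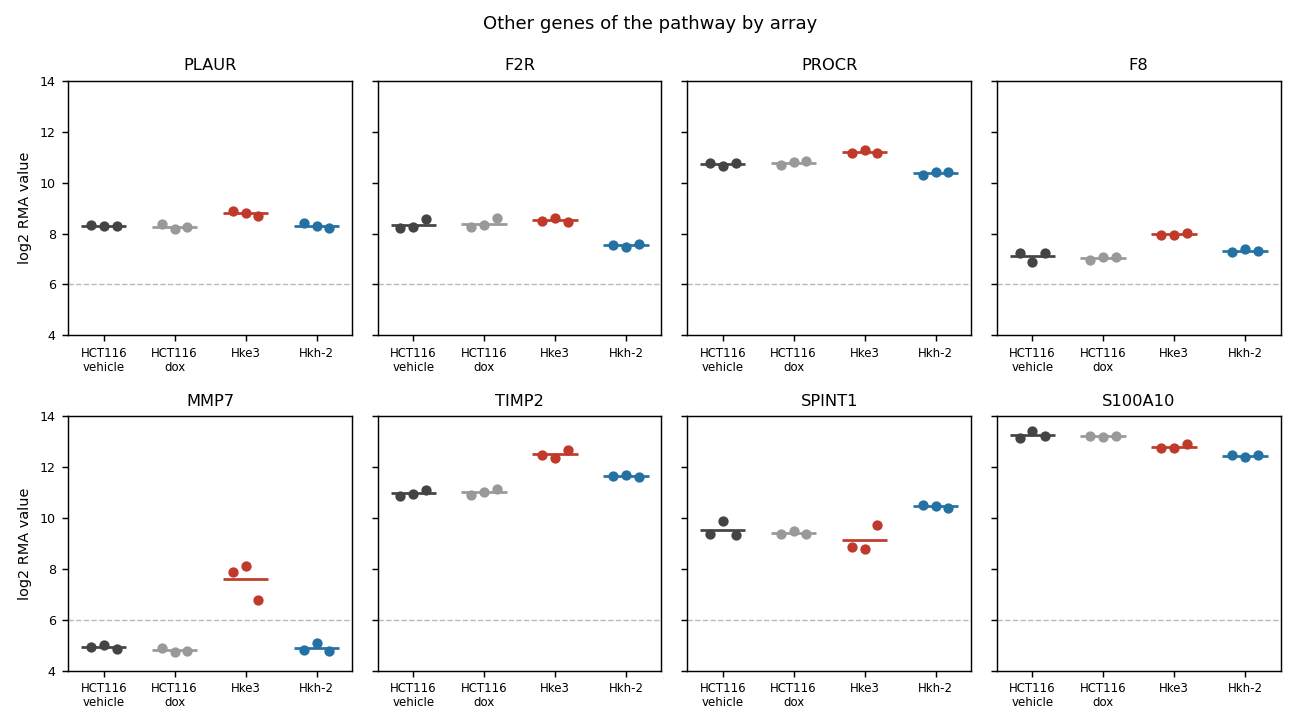
Log2 RMA value (y axis) of 8 other genes of the pathway (panels) in each array, with 3 arrays per group (points) and the group mean (bar); dox is doxycycline and the dashed line is the log2 value of 6. MMP7 rises above 6 in Hke3 only, at 6.78 to 8.13, and F2R is lowest in Hkh-2, at 7.49 to 7.60.

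**Figure D4:**
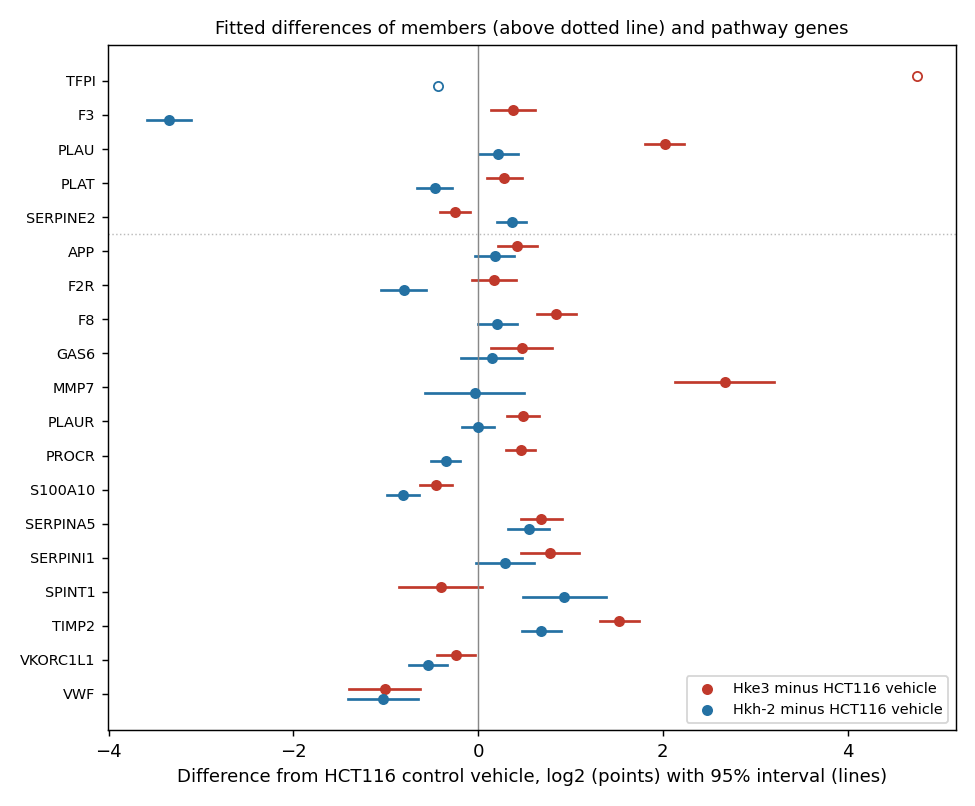
Fitted difference from the HCT116 vehicle mean (x axis, log2) of the 5 kept members (above the dotted line) and of the named pathway genes, for Hke3 (red) and Hkh-2 (blue), with 95% intervals from limma as lines; open circles mark TFPI, which was not tested between lines, and the fitted values of MMP7, VWF and SERPINA5 include group means near background. TFPI in Hke3 (4.75) and F3 in Hkh-2 (-3.35) lie farthest from 0. The intervals drawn for MMP7, VWF and SERPINA5 are not read as tests, since these genes are given as values only.

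The genes with the most similar pattern were ranked by Pearson r over the 12 arrays, as a description, since the arrays fall into 4 groups and share a line within each. For TFPI they were ENAH, GJC1 and SEPTIN10 (r = 0.994 each), FAM200B (0.993) and HKDC1 (0.989). GJC1, a gap junction protein, went from 8.09 with vehicle to 11.46 in Hke3 and 7.69 in Hkh-2, and HKDC1, a hexokinase-like protein, from 5.81 to 9.78 and 5.46. For F3 they were RGS2 (0.988), a regulator of G-protein signalling with means of 10.26, 10.34 and 6.51 with vehicle, in Hke3 and in Hkh-2, and FIBCD1 (0.987). For PLAU they were GEM (0.991) and SLC35F3 (0.990), for PLAT LOC101927263 (0.972) and BPGM (0.971), and for SERPINE2 RAB38 and GNG4 (0.972 each).

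The fibroblast marker COL3A1 was higher in Hkh-2, at 6.73 there and 4.45 to 4.49 in the other groups. The other fibroblast markers differed little between vehicle and Hkh-2. COL1A1, the brightest, was at 8.33 with vehicle and 8.19 in Hkh-2, and DCN at 6.15 and 6.21. COL1A2 was at 5.23 and 5.28, PDGFRB at 5.10 and 5.30 and LUM at 3.08 in both. Of the 6 fibroblast markers, 2 were at 6 or more elsewhere and 3 in Hkh-2, where COL3A1 was the added one. The log2 summed level of those 6 was 9.02 to 9.23 in the Hkh-2 arrays, 8.92 to 8.99 in the vehicle arrays and 8.82 to 8.93 in the Hke3 arrays. Its part in the low F3 and F2R of Hkh-2 was not tested.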

How the data were processed

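The authors deposited log2 expression values, 1 for each probe set and array, and the submitters' processing notes name RMA; the version and chip definition are not given in the sources used here. Names came from the platform annotation, where 41097 probe sets have 1 gene, and 41043 of these matched RefSeq by gene ID. A gene was its probe set with the highest mean, kept at a group mean of 6 or more. All 12 arrays entered 1 limma model with a mean for each of the 4 groups (version 3.58.1, R 4.3.3). The Benjamini-Hochberg adjustment ran over all 12852 kept genes, with 0.05 as the threshold. The code was tested on simulated data. The members and lists were chosen with earlier results of these data known. Named genes are all members and, from the lists, PLAUR and F2R and the 2 largest called differences in each list. 3 of the 61 list genes had no probe set named here, and the recombined gene is not reported here. Same-numbered vehicle and doxycycline arrays deviated together (r = 0.228, 0.212 and 0.453), and in no other pair of groups were all 3 correlations over 0.1 (range -0.58 to 0.42). The number of arrays limits the precision, and an exact test of 3 against 3 cannot give a two-sided p under 0.1. Alternatives were other probe set summaries, filters, normalizations, fits, the replicate block and leaving out arrays. Promoter sequences are from RefSeq (GRCh38.p14), with windows for 5 members.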

Additional observations from a re-analysis of the deposited data

Results flagged for a closer look

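In 3 members every array of Hke3 and every array of Hkh-2 lay on opposite sides of the vehicle arrays, and the difference was not tested because the comparison entered the choice of the genes: Hke3 minus Hkh-2 was 3.73 in F3, 0.75 in PLAT and -0.62 in SERPINE2 (212190_at only).

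Among other genes of the pathway, from lists chosen with earlier results of these data known, Hke3 was higher than Hkh-2 by 0.98 in F2R, 0.85 in TIMP2, 0.82 in PROCR, 0.64 in F8, 0.48 in PLAUR, 0.48 in SERPINI1, 0.36 in S100A10 and 0.30 in VKORC1L1, and SPINT1 was lower in Hke3, with a difference of -1.33. These passed an adjusted p of 0.05 in limma and are no independent support. The other SPINT1 probe set gave -0.26 for Hke3 minus Hkh-2, so the size of that difference rests on the brighter probe set. Calls were lost for F2R on the other probe set, at 0.33 (limma adjusted p = 0.0957), and for S100A10 with the mean of all probe sets, at 0.15 (limma adjusted p = 0.167). They were lost for SERPINI1 when Hke3 replicate 1 or 2 or Hkh-2 replicate 2 or 3 was left out (limma adjusted p = 0.0583 to 0.093), with 0.33 as the lowest value. The same 4 omissions ended the VKORC1L1 call (limma adjusted p = 0.0636 to 0.113), as did only the compared groups (limma adjusted p = 0.058). MMP7 exceeded Hkh-2 in Hke3 by a fitted 2.71, but it passed the limit of 6 through Hke3 alone, so this is a value with no test.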

How the results depend on the processing

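Over 25 alternative settings, the results for members kept their direction and side of the threshold in 481 cases and changed in 10. Many of these cases had little room to change. Leaving out an array outside a comparison, or summarizing a gene with 1 probe set in another way, keeps the difference. The untested results have no threshold to cross. The 481 cases are therefore no measure of robustness. With the mean of all probe sets, SERPINE2 reversed, to 0.053 for HCT116 vehicle minus Hkh-2 and 0.014 for Hke3 minus Hkh-2, and TFPI moved to -3.97 for HCT116 vehicle minus Hke3 and 4.27 for Hke3 minus Hkh-2. In that setting 0 members were called lower in Hke3 and 0 higher in Hkh-2. With only the compared groups, 0 members were called lower in Hke3 (SERPINE2, limma adjusted p = 0.0617). Without both arrays that stand apart, 1 member (PLAU) was called higher in Hke3 and 9 pathway genes higher in Hkh-2. With a group mean of at least 8, which leaves fewer genes, 1 member was called lower in Hkh-2 and 3 pathway genes lower in Hke3. Over the pathway genes with a mean over all arrays of at least 6, 3 were called lower in Hke3. With vehicle and doxycycline arrays pooled, 2 members were called higher in Hkh-2, with PLAU at a limma adjusted p of 0.035. The causes of the other changes were not tested. Leaving out single arrays gave 2 to 3 members called higher in Hke3. With the replicate block, 3 members were called higher and 1 lower in Hke3, and 1 higher and 2 lower in Hkh-2, so no call of a member changed. Near background, TFPI differences are bounds.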
